A study of Mus musculus with 12 samples.

Results

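Microglia of the adult mouse striatum were compared with microglia of the cortex, hippocampus and cerebellum by bulk RNA sequencing. The striatum accounted for 3 of the 12 libraries of the series, taken by their region label, and each difference is striatum minus the mean of the 3 other regions, weighted equally. All 12 libraries came from wild-type C57BL6N males at postnatal day 60: 3 from striatum, 3 from cortex, 3 from hippocampus and 3 from cerebellum. A library was made from 3000 cells of a TMEM119+ gate, sorted from tissue pooled over 3 to 5 mice. No treatment or transgene is named in the labels. Whether each pool was drawn from different animals is not stated, so any p-value reflects variation among libraries that may be only technical.

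Microglia are the macrophages that live in brain tissue; they survey it, take up debris and synapses, and depend on the receptor Csf1r and on TGF-beta signals for their identity. The striatum is the input station of the basal ganglia, rich in GABA-releasing projection neurons and in dopamine from the midbrain. Differences between microglia of different regions have been sought in their metabolic, phagocytic and immune genes.

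The expression level of a gene is given as CPM, its read count relative to the library's scaled total. It is not divided by gene length, so levels are compared between libraries and not between genes. Differences are on the log2 scale, where 1 is a doubling, with the standard error of the model fit. In bulk samples, fewer cells of a type and less RNA per cell cannot be told apart.

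The sorted cells carried microglial transcripts in all 3 striatum libraries. Tmem119, the gene of the sorted surface protein, stood at 2204, 1504 and 1489 CPM in striatum 1, 2 and 3, against 1082 to 3241 CPM (median 2043) in the 9 libraries of the other regions. P2ry12, a purinergic receptor that steers microglial processes, stood at 6022, 4758 and 4436 CPM in striatum and at 4085 to 6406 CPM in the other regions. Of 28 homeostatic microglia genes, all had counts in striatum and all were tested.

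The 3 striatum libraries were not alike. Total counts were 8574116, 6479839 and 12696248 in striatum 1, 2 and 3, against 8537139 to 14833340 in the other regions. Striatum 2 had the smallest total of the 12 and 10929 detected genes, against 12421 and 12876 in striatum 1 and 3. Its log2 CPM values correlated at 0.755 to 0.771 with striatum 1 and 3, which correlated at 0.914 with each other. With the 9 libraries of the other regions, striatum 1 correlated at 0.886 to 0.916 and striatum 3 at 0.888 to 0.931. Both ranges include 0.914. The other regions' libraries correlated at 0.748 to 0.769 with striatum 2 and at 0.858 to 0.936 among themselves. These are descriptions over genes of the same tissue type, which all share the level of each gene.

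Striatum 2 lacked many genes that were well counted on average in the other libraries. Among the 10046 genes averaging 50 or more counts in the other 11 libraries, 1028 (10.2%) had no count there, whereas the same count for each of the other libraries was 4 to 49. The share at 0 was 40.7% for genes with a mean of 50 to 100 counts, 10.3% at 200 to 500 counts and 0.109% from 1000 counts on. After every library was thinned to the total of striatum 2, 786 of 9463 such genes were still at 0 in it. Zfyve19, Gcn1l1 and Nup93 are among the 6 named genes with the highest mean counts of those at 0. Zfyve19 had 132, 0 and 118 CPM in striatum 1, 2 and 3, against 115 to 180.1 CPM in the other regions. Gcn1l1, whose product senses stalled ribosomes, had 126, 0 and 196 CPM in striatum, against 79.1 to 173 CPM elsewhere. Nup93, a scaffold gene of the nuclear pore, had 80.6, 0 and 86.6 CPM in striatum, against 52.6 to 118 CPM elsewhere. For these 3 genes striatum 1 and 3 lay within or above the range of the other regions, and striatum 2 alone was empty. Among genes at 10 CPM or more in the library, striatum 2 exceeded the next highest library by more than 2-fold for 479. For each of the others this number was 1 to 31. Every result below is therefore given with striatum 2 and without it.

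**Figure D1:**
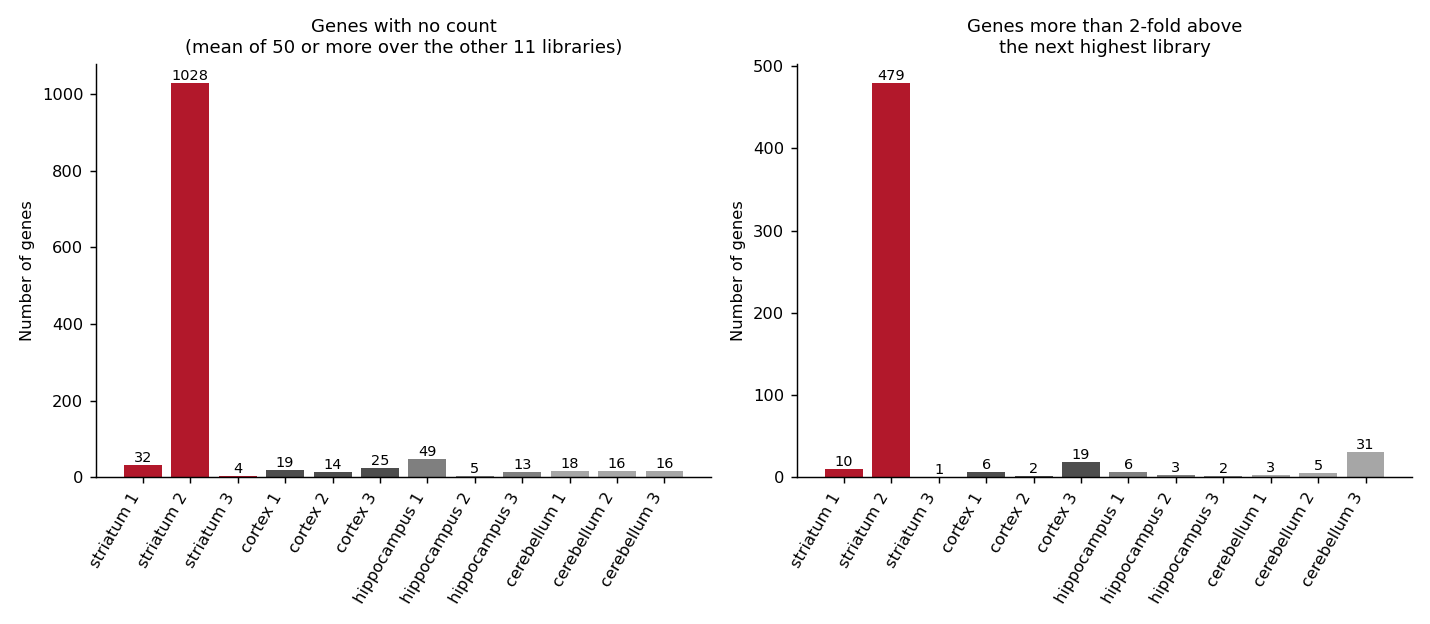
Bars give, for each of the 12 libraries, the number of genes with no count although they average at least 50 counts in the other 11 libraries (left) and the number of genes more than 2-fold above the next highest library (right). Striatum 2 reaches 1028 and 479 genes, while the other 11 libraries stay at 4 to 49 and at 1 to 31 genes.

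No gene passed an adjusted p of 0.05 between striatum and the mean of the other regions. With all 12 libraries, edgeR's quasi-likelihood test called 0 of 12217 genes (0.0%), and the smallest Benjamini-Hochberg adjusted p was 0.745. At an unadjusted p under 0.05 there were 786 genes (6.43%), of which 563 were higher in striatum (4.61%) and 223 lower (1.83%). DESeq2 called 2 genes, Kdm5d (higher, adjusted p = 0.0254) and Ccr1 (lower, adjusted p = 0.0341), and limma-voom called 0. Without striatum 2, edgeR called 0 of 12803 genes (0.0%, smallest adjusted p 1.00), with 190 higher (1.48%) and 142 lower (1.11%) at that unadjusted threshold (332 together, 2.59%); by DESeq2 and by limma-voom, too, 0 genes were called. None of the genes described below is therefore a called difference by edgeR with all 12 libraries. They are leading genes by rank, members of gene lists, genes known from earlier results, and some looked up after values were seen. A p given below as under or over 0.05 is unadjusted; the edgeR adjusted p of each gene was at least 0.745 with all 12 libraries and 1.00 without striatum 2.

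Striatum 2 was the highest striatum library for most of the genes in the higher direction. Of the 563 genes higher at an unadjusted p under 0.05, striatum 2 was the highest striatum library for 527, and the median log2 difference was 0.95 with it and 0.38 without it. Among all 12217 tested genes, striatum 2 was the highest of the 12 libraries for 2634 and the lowest for 3887. Its rank among the 3 striatum libraries alone was not counted over all genes. Without striatum 2, 518 of the 563 stayed above 0 and 64 stayed under a p of 0.05. The 223 lower genes had a median of -0.996 with striatum 2 and -0.75 without it; all 223 stayed below 0, and 77 stayed under a p of 0.05. Striatum 2 had no count for 68 of these 223. Together 141 of 12217 genes (1.15%) were under an unadjusted p of 0.05 in the same direction in both fits, 64 higher (0.524%) and 77 lower (0.63%). The fits share 11 libraries, so the second is no independent support for the first.

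**Figure D2:**
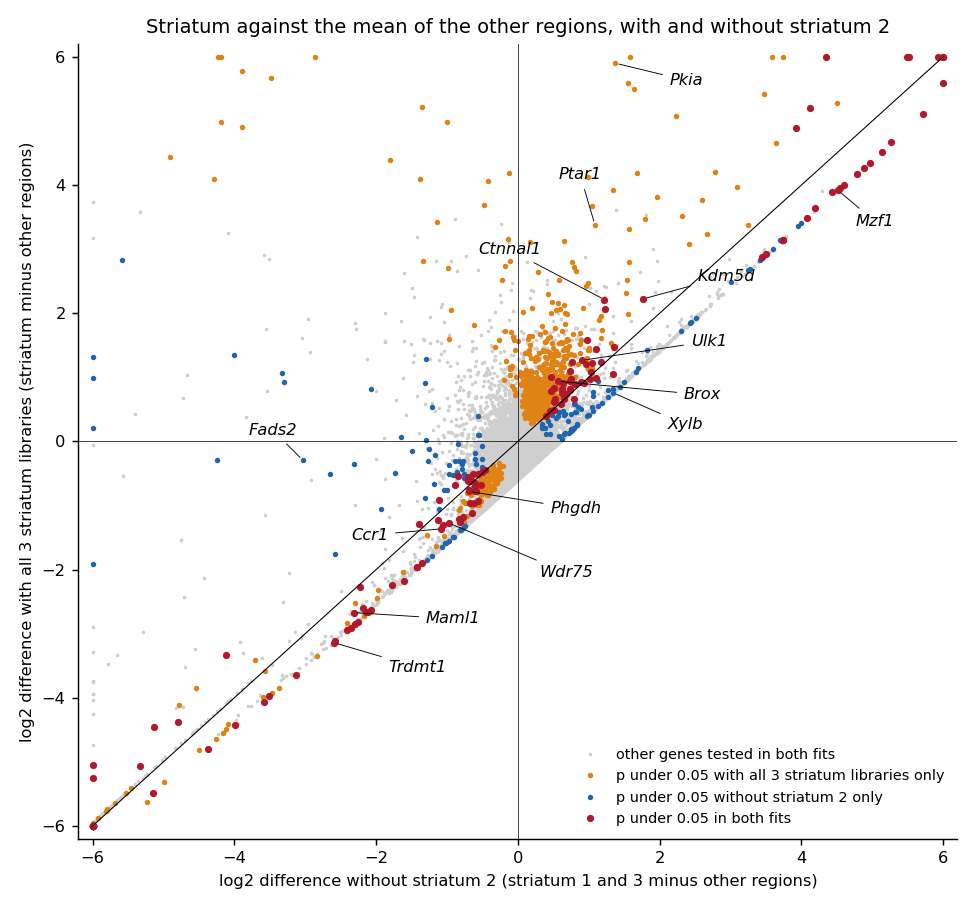
Each point is a gene tested in both fits, with the log2 difference without striatum 2 on the horizontal axis and with all 3 striatum libraries on the vertical axis, both striatum minus the mean of the other regions; values beyond 6 on either side are drawn at 6 and the line marks equal values. Orange points, the genes under a p of 0.05 only with striatum 2, lie mostly above the line, and red points mark the 64 higher and 77 lower genes under 0.05 in both fits.

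Striatum libraries lay wholly outside the range of the other regions for few genes. With all 3 striatum libraries, 51 of 12217 genes lay above all 9 others (0.417%) and 61 lay below them (0.499%). With striatum 1 and 3 only, 158 of 12803 genes lay above (1.23%) and 120 below (0.937%).

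The gene with the smallest p was Kdm5d, a Y-linked histone H3 lysine demethylase (chromosome Y, 897566 to 943813, GRCm38). Kdm5d stood at 63.4, 126 and 55.3 CPM in striatum 1, 2 and 3. The other libraries held 12.0015, 15.6 and 8.88 CPM in cortex, 15.3, 16.8 and 15.3 CPM in hippocampus, and 10.7, 15.8 and 56.1 CPM in cerebellum. All 3 striatum libraries thus lay above 8 of the 9 others, and cerebellum 3 lay between striatum 1 and striatum 3. The log2 difference was 2.22 ± 0.41 (edgeR, unadjusted p under 0.05, adjusted p = 0.745) with all striatum libraries and 1.77 ± 0.42 (unadjusted p under 0.05, adjusted p = 1.00) without striatum 2. Leaving out cerebellum 3 instead made Kdm5d the single gene that edgeR called, at 2.57 (adjusted p = 0.0361).

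The other Y-linked genes were followed in the same libraries, all from male mice. Ddx3y, an RNA helicase gene, had 117, 212 and 144 CPM in striatum, against 62.1 to 125 CPM (median 71.9) elsewhere, a log2 difference of 0.90 ± 0.25 (edgeR, unadjusted p under 0.05) with striatum 2 and 0.63 ± 0.27 (p under 0.05) without it. Eif2s3y, a translation initiation factor gene, had 112, 203 and 81.7 CPM in striatum, against 70.4 to 118 CPM elsewhere, with differences of 0.56 ± 0.26 (edgeR, p over 0.05) and 0.11 ± 0.25 (p over 0.05) without striatum 2. Uty, another demethylase gene, had 31.0, 0.323 and 36.8 CPM in striatum, against 6.84 to 65.2 CPM elsewhere. Kdm5d and Ddx3y thus kept a p under 0.05 without striatum 2, while Eif2s3y and Uty did not reach it in either fit. Xist, the X-inactivation RNA of female cells, had 0 counts in all 12 libraries.

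At the lower end stood Ccr1, a chemokine receptor for CCL3 and CCL5 on myeloid cells (chromosome 9, 123962126 to 123968692, GRCm38). Ccr1 had 68.6, 29.7 and 60.2 CPM in striatum 1, 2 and 3. The other libraries held 149.6, 194 and 135 CPM in cortex, 188, 137 and 175 CPM in hippocampus, and 102, 129 and 54.6 CPM in cerebellum. Striatum lay below 8 of the 9 others, and cerebellum 3 lay among the striatum values. Without striatum 2, cerebellum 3 lay below both striatum 1 and striatum 3. The log2 difference was -1.36 ± 0.31 (edgeR, unadjusted p under 0.05, adjusted p = 0.745) and -1.08 ± 0.29 (unadjusted p under 0.05, adjusted p = 1.00) without striatum 2.

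Phgdh, the first enzyme of serine synthesis from a glycolytic intermediate (chromosome 3, 98313171 to 98339969, GRCm38), was below every other library in all 3 striatum libraries. It had 167, 153 and 206 CPM in striatum, against 402, 339 and 288 CPM in cortex, 265, 369 and 272 CPM in hippocampus, and 328, 243 and 222 CPM in cerebellum. The groups did not overlap, with or without striatum 2. The log2 difference was -0.78 ± 0.18 (edgeR, unadjusted p under 0.05) and -0.69 ± 0.21 (p under 0.05) without striatum 2. The next enzymes of the pathway, looked up after the value of Phgdh was seen, overlapped between groups. Psat1, the aminotransferase, had 48.9, 28.1 and 110.0 CPM in striatum, against 63.8 to 151 CPM elsewhere (-0.67 ± 0.36, edgeR p over 0.05, and -0.32 ± 0.33, p over 0.05, without striatum 2). Psph, the phosphatase that releases serine, had 18.1, 0 and 19.6 CPM in striatum, against 6.47 to 42.1 CPM elsewhere. Shmt2, which passes the serine carbon to folate in mitochondria, had 118, 102 and 93.1 CPM in striatum, against 87.8 to 188 CPM elsewhere (-0.36 ± 0.20, edgeR p over 0.05, and -0.34 ± 0.23, p over 0.05). Shmt1, its cytosolic counterpart, had 13.4, 23.8 and 14.9 CPM in striatum, against 10.9 to 46.0 CPM elsewhere (-0.76 ± 0.41, edgeR p over 0.05, and -1.05 ± 0.44, p under 0.05, without striatum 2). The estimates for these 4 genes were below 0 in each fit, and only Shmt1 without striatum 2 was under a p of 0.05.

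Wdr75, which takes part in the first processing of ribosomal RNA in the nucleolus (chromosome 1, 45795153 to 45823638, GRCm38), also lay below all 9 others. It had 22.8, 11.3 and 28.3 CPM in striatum, against 46.1, 65.9 and 49.2 CPM in cortex, 76.1, 55.9 and 46.2 CPM in hippocampus, and 40.2, 38.9 and 41.9 CPM in cerebellum. The nearest library of another region was cerebellum 2. The log2 difference was -1.27 ± 0.31 (edgeR, unadjusted p under 0.05) and -0.98 ± 0.28 (p under 0.05) without striatum 2.

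The upstream sequences of these leading genes are shown because they are the elements next to the transcripts that the comparison ranks first: the pair of genes that DESeq2 called, and the pair lowest in p among the lower genes with no overlap. Each is the 250 bases before the transcript start in RefSeq (GRCm38.p6), 5′ to 3′ on the gene's strand; a gene span given above can begin inside this window. Capitals mark matches on either strand to 5 motifs: the E-box with the letters CACGTG, the CCAAT box, the GC box with the letters GGGCGG, the TATA box with the letters TATAAA, and a motif of PU.1, a factor that macrophages need, with the letters GAGGAAGT.
Kdm5d, chrY:897538-897787, plus strand: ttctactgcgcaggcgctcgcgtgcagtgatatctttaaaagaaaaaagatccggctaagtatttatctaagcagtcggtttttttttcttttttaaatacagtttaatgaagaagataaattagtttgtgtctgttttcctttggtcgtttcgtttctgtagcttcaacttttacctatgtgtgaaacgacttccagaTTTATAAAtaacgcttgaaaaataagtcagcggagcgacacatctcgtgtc
Ccr1, chr9:123968693-123968942, minus strand: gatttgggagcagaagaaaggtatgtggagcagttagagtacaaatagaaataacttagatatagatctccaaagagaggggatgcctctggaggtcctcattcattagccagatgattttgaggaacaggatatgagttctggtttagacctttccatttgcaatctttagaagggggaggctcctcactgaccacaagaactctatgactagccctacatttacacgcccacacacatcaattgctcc
Phgdh, chr3:98339970-98340219, minus strand: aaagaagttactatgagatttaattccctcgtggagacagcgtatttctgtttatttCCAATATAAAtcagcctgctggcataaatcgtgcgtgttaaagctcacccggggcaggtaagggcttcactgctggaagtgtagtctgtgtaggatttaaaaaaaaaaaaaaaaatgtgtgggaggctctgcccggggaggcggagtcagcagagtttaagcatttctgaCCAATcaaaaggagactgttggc
Wdr75, chr1:45794916-45795165, plus strand: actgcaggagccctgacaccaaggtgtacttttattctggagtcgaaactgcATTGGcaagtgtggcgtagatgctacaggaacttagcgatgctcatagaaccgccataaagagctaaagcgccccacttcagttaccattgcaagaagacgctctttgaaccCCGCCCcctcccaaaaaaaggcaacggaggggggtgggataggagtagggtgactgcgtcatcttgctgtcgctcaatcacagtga
The Kdm5d window held 2 overlapping TATAAA matches, counted on both strands. The Ccr1 window held no match to any of the 5 motifs. The Phgdh window held 2 CCAAT matches and 1 TATAAA match, the first CCAAT overlapping the TATAAA by a base. The Wdr75 window held 1 CCAAT and 1 GGGCGG match, each on the opposite strand. Of 27025 promoter windows of that table, counted over the same 250 bases, 13.0% held the TATA box, 34.5% the CCAAT box, 32.9% the GC box, 6.05% the E-box and 2.44% the PU.1 motif. A match is a description of letters and not a site of binding.

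**Figure D3:**
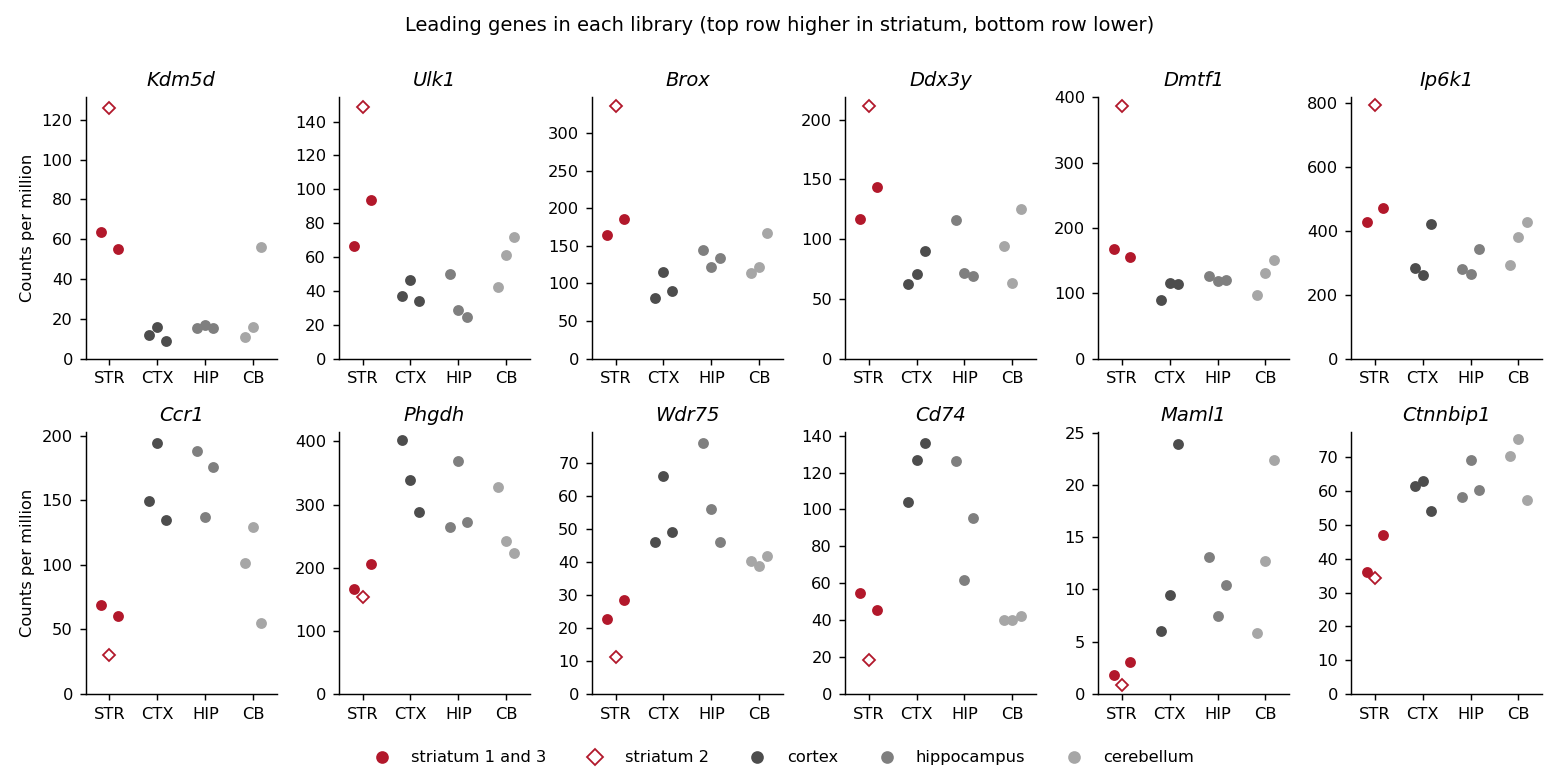
Each panel gives the CPM of a gene in the 12 libraries, striatum (STR) first and then cortex (CTX), hippocampus (HIP) and cerebellum (CB); each point is a library and the open diamond is striatum 2. In the top row striatum 1 and 3 stand above at least 8 of the 9 other libraries, with Kdm5d at 63.4 and 55.3 CPM against 56.1 CPM in cerebellum 3, and in the bottom row the striatum libraries of Phgdh, Wdr75, Maml1 and Ctnnbip1 stand below all 9 others.

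Among the higher genes, Ulk1, the kinase that starts autophagy (chromosome 5, 110784489 to 110810120), had 66.6, 149 and 93.9 CPM in striatum, against 24.2 to 71.7 CPM (median 42.2) in the other regions. The striatum libraries lay above 8 of the 9 others, and only cerebellum 3 was higher than striatum 1. The log2 difference was 1.27 ± 0.28 (edgeR, unadjusted p under 0.05) and 0.91 ± 0.29 (p under 0.05) without striatum 2. Brox, whose Bro1-domain product works with the membrane repair machinery of the nuclear envelope (chromosome 1, 183276352 to 183297298), had 165, 336 and 186 CPM in striatum, against 80.7 to 167 CPM (median 121) elsewhere. Its difference was 0.94 ± 0.21 (edgeR, p under 0.05) and 0.56 ± 0.20 (p under 0.05) without striatum 2. Cerebellum 3 again was the 1 library of the other regions above striatum 1.

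Several genes lay above all 9 other libraries in each of the striatum libraries. Dmtf1, a transcription factor that induces the Arf tumour suppressor, had 168, 386 and 156 CPM in striatum, against 90.0 to 151 CPM elsewhere (1.00 ± 0.24, edgeR p under 0.05, and 0.46 ± 0.19, p under 0.05, without striatum 2). Ip6k1, which makes inositol pyrophosphates, had 426, 792 and 470.3 CPM in striatum, against 262 to 425 CPM elsewhere (0.79 ± 0.20, edgeR p under 0.05, and 0.46 ± 0.20, p under 0.05). For both, striatum 2 was the highest library of all and striatum 1 or 3 exceeded the top of the other regions narrowly. Ctnnal1, an alpha-catenin relative, had 21.8, 84.7 and 20.7 CPM in striatum, against 1.95 to 18.0 CPM elsewhere (2.21 ± 0.56, edgeR p under 0.05, and 1.22 ± 0.54, p under 0.05). Ptpdc1, a phosphatase gene, had 14.3, 48.0 and 14.1 CPM in striatum, against 0.836 to 13.8 CPM elsewhere (2.07 ± 0.54, edgeR p under 0.05, and 1.23 ± 0.52, p under 0.05). Fam84b had 22.1, 51.2 and 17.8 CPM in striatum, against 3.94 to 13.9 CPM elsewhere (1.58 ± 0.45, edgeR p under 0.05, and 0.97 ± 0.44, p under 0.05). These 5 genes kept a p under 0.05 without striatum 2, each with a smaller difference.

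A pair of genes for sialic acid handling in lysosomes also stood in this direction. Neu1, the lysosomal sialidase, had 142, 274 and 142 CPM in striatum, against 93.6 to 129 CPM elsewhere, above all 9 (0.67 ± 0.20, edgeR p under 0.05, and 0.28 ± 0.18, p over 0.05, without striatum 2). Slc17a5, the exporter of free sialic acid from lysosomes, named after its values were seen, had 78.8, 113 and 94.9 CPM in striatum, against 45.2 to 82.2 CPM elsewhere (0.65 ± 0.21, edgeR p under 0.05, and 0.52 ± 0.24, p under 0.05). Slc17a5 thus stayed under 0.05 without striatum 2 and Neu1 did not.

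For other genes above all 9 libraries, the p without striatum 2 was over 0.05. Stat2, which carries type I interferon signals, had 96.9, 183 and 103 CPM in striatum, against 37.7 to 88.2 CPM elsewhere (0.92 ± 0.27, edgeR p under 0.05, and 0.58 ± 0.27, p over 0.05). Gosr2, a Golgi SNARE gene, had 192, 350.1 and 165 CPM in striatum, against 93.9 to 159 CPM (0.79 ± 0.22, edgeR p under 0.05, and 0.39 ± 0.20, p over 0.05). Aasdh had 47.0, 176 and 49.3 CPM in striatum, against 17.0 to 45.8 CPM (1.53 ± 0.41, edgeR p under 0.05, and 0.62 ± 0.36, p over 0.05). Striatum 2 was the highest library of the 12 for each of these 3 genes. Ptar1, a prenyltransferase subunit gene, had 4.62, 53.5 and 3.72 CPM in striatum, against 0.532 to 3.48 CPM elsewhere (3.38 ± 0.79, edgeR p under 0.05, and 1.08 ± 0.91, p over 0.05).

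Pkia and Wwc2, named from earlier results of these data, were high in striatum 2 alone. Pkia, an inhibitor of protein kinase A, had 0.828, 83.1 and 1.58 CPM in striatum, against 0 to 5.82 CPM elsewhere and 0 in all 3 cerebellum libraries (edgeR p under 0.05, and p over 0.05 without striatum 2). Wwc2, a Hippo pathway regulator gene, had 26.7, 104 and 37.8 CPM in striatum, against 9.84 to 40.2 CPM elsewhere (1.29 ± 0.38, edgeR p under 0.05, and 0.50 ± 0.33, p over 0.05). Striatum 1 and 3 lay within the range of the other regions for both.

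Further lower genes lay below all 9 other libraries. Ctnnbip1, which keeps beta-catenin from its TCF partners, had 36.2, 34.3 and 47.1 CPM in striatum, against 54.0 to 75.5 CPM (median 61.7) elsewhere (-0.69 ± 0.21, edgeR p under 0.05, and -0.60 ± 0.23, p under 0.05, without striatum 2). Maml1, a Notch coactivator gene, had 1.77, 0.808 and 3.09 CPM in striatum, against 5.79 to 23.9 CPM (median 10.4) elsewhere (-2.67 ± 0.73, edgeR p under 0.05, and -2.32 ± 0.70, p under 0.05). Their values without striatum 2 were close to those with it.

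Sncaip, the gene of synphilin-1, a partner of alpha-synuclein, had 34.0, 9.38 and 33.5 CPM in striatum, against 43.5 to 84.9 CPM elsewhere (-1.17 ± 0.37, edgeR p under 0.05, and -0.78 ± 0.28, p under 0.05). Trdmt1, a tRNA methyltransferase gene, had 0.592, 0 and 2.53 CPM in striatum, against 6.65 to 23.2 CPM elsewhere (edgeR p under 0.05, and p under 0.05 without striatum 2). Rnase10 had 2.72, 0 and 2.38 CPM in striatum, against 2.87 to 20.7 CPM elsewhere (edgeR p under 0.05, and p under 0.05). Ppic, a cyclophilin gene, had 1.54, 0.162 and 2.69 CPM in striatum, against 5.27 to 18.7 CPM (edgeR p under 0.05, and p under 0.05). All 4 lay below every other library with striatum 1 and 3 alone. Tob1, an antiproliferative gene, and Il6, a cytokine gene, were near 0 in striatum: Tob1 had 0.237, 0 and 0.792 CPM against 2.16 to 9.30 CPM elsewhere, and Il6 had 0, 0 and 0.317 CPM against 0.463 to 3.67 CPM. Tob1 and Il6 were under an edgeR p of 0.05 with and without striatum 2.

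Cd74, the invariant chain that accompanies MHC class II (chromosome 18, 60803849 to 60812652), was lower than in cortex and hippocampus libraries and not lower than in cerebellum throughout. It had 54.9, 18.4 and 45.6 CPM in striatum, against 104, 127 and 136 CPM in cortex, 126, 62.0 and 95.1 CPM in hippocampus, and 39.8, 39.8 and 42.3 CPM in cerebellum. The log2 difference from the mean of the others was -0.97 ± 0.32 (edgeR, unadjusted p under 0.05) and -0.63 ± 0.26 (p under 0.05) without striatum 2. Taken by region, it was -1.62 against cortex (edgeR, p under 0.05), -1.25 against hippocampus (p under 0.05) and -0.03 against cerebellum (p over 0.05). Without striatum 2 the values were -1.28 (edgeR, p under 0.05), -0.91 (p under 0.05) and 0.31 (p over 0.05). All 3 striatum libraries lay below all those of cortex and hippocampus and overlapped with cerebellum.

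Other leading genes were set against each region in the same way. Ccr1 differed by -1.59 from cortex (edgeR, p under 0.05), by -1.65 from hippocampus (p under 0.05) and by -0.85 from cerebellum (p under 0.05), and without striatum 2 by -1.31, -1.37 and -0.56, the last with a p over 0.05. Phgdh differed by -0.97, -0.78 and -0.59, and without striatum 2 by -0.88, -0.69 and -0.50. Kdm5d differed by 2.74, 2.36 and 1.57, and without striatum 2 by 2.28, 1.91 and 1.12. For these 3 genes the estimate nearest to 0 was the one against cerebellum, with a p under 0.05 with all libraries and over 0.05 without striatum 2. Across all genes, edgeR called 0 in each of the 3 pairs. At an unadjusted p under 0.05 there were 440 higher and 243 lower against cortex, 340 and 190 against hippocampus, and 169 and 124 against cerebellum. Without striatum 2 these were 244 and 189, 183 and 164, and 98 and 101. The pairs share the striatum libraries, and no test compared one pair with another.

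Some differences were larger, or under a p of 0.05 only, without striatum 2. Of the 190 genes higher at an unadjusted p under 0.05 without it, 83 had no count in striatum 2, and of the 142 lower genes 44 had none. Xylb, a xylulose kinase gene (chromosome 9, 119357381 to 119393797), had 30.4, 0 and 28.1 CPM in striatum, against 8.88 to 15.6 CPM elsewhere. Its log2 difference was 0.76 ± 0.84 (edgeR, unadjusted p over 0.05) with striatum 2 and 1.34 ± 0.33 (p under 0.05) without it. Zfyve16, an endosomal adaptor gene of TGF-beta and BMP signalling, had 54.9, 23.1 and 47.3 CPM in striatum, against 10.6 to 40.3 CPM elsewhere (1.05 ± 0.39, edgeR p under 0.05, and 1.34 ± 0.37, p under 0.05, without striatum 2). Sos2, a Ras exchange factor gene named after its values were seen, had 32.4, 0 and 52.9 CPM in striatum, against 5.91 to 28.3 CPM elsewhere (0.85 ± 0.89, edgeR p over 0.05, and 1.44 ± 0.46, p under 0.05). Striatum 1 and 3 lay above all 9 others for each of these genes, while striatum 2 was at 0 or inside their range. Mzf1, a zinc finger gene, had 10.1, 0 and 8.23 CPM in striatum, against 0 to 5.69 CPM elsewhere, and Ahr, the aryl hydrocarbon receptor, had 5.68, 0 and 4.67 CPM, against 0 to 2.19 CPM. Mzf1 and Ahr were under an edgeR p of 0.05 with and without striatum 2.

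In the lower direction, Gsr, glutathione reductase, had 26.6, 48.0 and 29.1 CPM in striatum, against 34.8 to 66.1 CPM elsewhere (-0.54 ± 0.24, edgeR p under 0.05, and -0.85 ± 0.24, p under 0.05, without striatum 2). Fads2, a desaturase of polyunsaturated fatty acids, had 0.710, 17.8 and 1.19 CPM in striatum, against 2.66 to 15.3 CPM elsewhere (-0.29 ± 0.87, edgeR p over 0.05, and -3.04 ± 0.75, p under 0.05). Striatum 2 stood above all 9 others for Fads2, and striatum 1 and 3 stood below them.

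Groups of genes were described by counts and medians, which over all 12217 tested genes were 45.9% above 0 and a median log2 difference of -0.05, and without striatum 2 49.8% and -0.0021. At an unadjusted p under 0.05, 4.61% of all genes were higher and 1.83% lower. Without striatum 2 these shares were 1.48% and 1.11%. Of the homeostatic microglia genes 18 of 28 were above 0, with a median of 0.06, and 17 of 28 with a median of 0.02 without striatum 2. A single member was under an unadjusted p of 0.05. This was Csf1r, the survival receptor, with 9637, 10740.1 and 8284 CPM in striatum, against 5691 to 9680.5 CPM (median 7918) elsewhere, a difference of 0.30 ± 0.12 (edgeR, p under 0.05) with striatum 2 and 0.21 ± 0.14 (p over 0.05) without it. Sall1, a transcription factor of microglial identity, had 696, 834 and 858 CPM in striatum, against 302 to 939.7 CPM elsewhere (0.47 ± 0.28, edgeR p over 0.05, and 0.43 ± 0.32, p over 0.05, without striatum 2). Disease-associated microglia genes were above 0 in 16 of 26 with striatum 2 (median 0.05) and in 7 of 26 without it (median -0.08), and no member was under 0.05 in either fit.

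Ribosomal protein genes were below 0 in 51 of 51 cases, with a median of -0.27, and in 50 of 51 without striatum 2 (median -0.31). Only 2 of 51 members were lower at an unadjusted p under 0.05 with striatum 2 (all genes 1.83%), and 0 without it (all genes 1.11%). Rplp0, of the ribosomal stalk, had 191, 159 and 188 CPM in striatum, against 162 to 379 CPM elsewhere (-0.47 ± 0.22, edgeR p under 0.05, and -0.39 ± 0.25, p over 0.05). The members are measured in the same libraries and are not independent of each other. Summed over the list, striatum had 3799, 3947 and 4013 CPM. The other regions had 7362, 4869.6 and 4003 CPM in cortex, 4388, 6017 and 3976 CPM in hippocampus, and 5342, 4284 and 3354.5 CPM in cerebellum. The striatum sums lay inside the range of the other 9, which reached highest in cortex 1 and hippocampus 2 and lowest in cerebellum 3.

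Nuclear genes of oxidative phosphorylation showed a like pattern, with 41 of 45 below 0 (median -0.20) and 43 of 45 without striatum 2 (median -0.24). Uqcrc2, a core protein gene of complex III, was the member under 0.05, with 65.7, 63.5 and 68.5 CPM in striatum, against 62.2 to 148 CPM (median 100.3) elsewhere (-0.65 ± 0.25, edgeR p under 0.05, and -0.62 ± 0.29, p over 0.05). List sums were 5428, 5531 and 5655 CPM in striatum, against 4554 to 8531 CPM elsewhere. Glycolysis genes were below 0 in 15 of 22 (median -0.16) and in 17 of 22 without striatum 2 (median -0.17). In these lists, too, the striatum sums fell within the spread of the other libraries, with glycolysis at 2677, 3212 and 3261 CPM in striatum against 2621 to 3753 CPM elsewhere.

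Genes of ribosome biogenesis, the list that holds Wdr75, were below 0 in 26 of 39 in each fit (median -0.10, and -0.13 without striatum 2). Bop1, of the large subunit pathway, had 57.6, 46.1 and 66.6 CPM in striatum, against 47.9 to 103 CPM elsewhere (-0.45 ± 0.21, edgeR p under 0.05, and -0.32 ± 0.23, p over 0.05). Ubtf, the factor that opens ribosomal DNA for RNA polymerase I, went the other way, with 102, 182 and 122 CPM in striatum, against 72.0 to 125 CPM elsewhere (0.46 ± 0.21, edgeR p under 0.05, and 0.19 ± 0.22, p over 0.05). Of the 3 of 39 members under 0.05 with striatum 2 (all genes 6.43%), only Wdr75 was under it without. Cell cycle genes were below 0 in 16 of 25 (median -0.18) and in 20 of 25 without striatum 2 (median -0.12). The replication helicase gene Mcm2 had 183, 67.4 and 205 CPM in striatum, against 162 to 309 CPM elsewhere (-0.66 ± 0.30, edgeR p under 0.05, and -0.30 ± 0.22, p over 0.05).

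The autophagy list, with Ulk1, had 19 of 33 members above 0 in each fit (median 0.08, and 0.05 without striatum 2). With striatum 2, 4 of 33 members were higher at an unadjusted p under 0.05 (all genes 4.61%) and 0 were lower: Ulk1, Ambra1, Pik3r4 and Wipi2. Ambra1, which links ULK1 and Beclin, had 49.0, 84.9 and 65.7 CPM in striatum, against 27.8 to 76.0 CPM elsewhere (0.71 ± 0.28, edgeR p under 0.05, and 0.50 ± 0.31, p over 0.05). Pik3r4, a subunit gene of the class III lipid kinase, had 78.5, 137 and 93.7 CPM in striatum, against 27.2 to 94.3 CPM elsewhere (0.83 ± 0.33, edgeR p under 0.05, and 0.58 ± 0.36, p over 0.05). Without striatum 2, the higher members under 0.05 were Ulk1 and Atg2b, and Atg14 was lower under 0.05. Atg2b, a lipid transfer gene of the growing autophagosome, had 31.5, 0 and 42.5 CPM in striatum, against 11.2 to 48.4 CPM elsewhere (0.41 ± 0.84, edgeR p over 0.05, and 0.99 ± 0.35, p under 0.05). Atg14, a subunit gene of the lipid kinase complex, had 22.6, 38.1 and 30.4 CPM in striatum, against 25.7 to 63.9 CPM elsewhere (-0.57 ± 0.28, edgeR p over 0.05, and -0.76 ± 0.31, p under 0.05). The list thus held members in both directions. Lysosome genes were above 0 in 21 of 30 (median 0.10) and in 19 of 30 without striatum 2 (median 0.03), with 0 members under 0.05, whereas subunits of the lysosomal proton pump were below 0 in 12 of 15 (median -0.18) and in 9 of 15 without striatum 2 (median -0.08).

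Toll-like receptor and adaptor genes were above 0 in 15 of 21 (median 0.27), and in 17 of 22 without striatum 2 (median 0.19). Irak2, a signalling kinase of the pathway, had 101, 290.3 and 124 CPM in striatum, against 64.4 to 112 CPM elsewhere (0.98 ± 0.27, edgeR p under 0.05, and 0.37 ± 0.22, p over 0.05). Tlr12, a receptor for protozoan profilin, had 25.6, 67.2 and 24.4 CPM in striatum, against 7.75 to 26.3 CPM elsewhere (1.35 ± 0.42, edgeR p under 0.05, and 0.71 ± 0.40, p over 0.05). Tlr6 had 81.5, 133 and 57.3 CPM in striatum, against 36.1 to 78.3 CPM elsewhere (0.69 ± 0.28, edgeR p under 0.05, and 0.31 ± 0.29, p over 0.05). These 3 of 21 members (all genes 4.61% higher) passed an unadjusted 0.05 only with striatum 2, in which each was highest. TGF-beta signalling genes were above 0 in 10 of 16 (median 0.16) and in 13 of 16 without striatum 2 (median 0.22). With striatum 2, 3 of 16 members were higher at a p under 0.05 (all genes 4.61%), and without it 0 were. Among the 3 was Smad7, the inhibitory SMAD, at 30.9, 85.5 and 40.2 CPM in striatum against 22.8 to 43.9 CPM elsewhere.

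MHC class II genes were below 0 in 5 of 5 tested members in each fit (median -0.32, and -0.42 without striatum 2), with Cd74 as the only member under 0.05. H2-DMb1, which helps to load peptides, had 39.4, 25.9 and 46.6 CPM in striatum, against 33.5 to 65.4 CPM elsewhere (-0.32 ± 0.29, edgeR p over 0.05, and -0.12 ± 0.30, p over 0.05). Chemokine receptor genes were above 0 in 3 of 11 (median -0.42) and in 5 of 14 without striatum 2 (median -0.59). Apart from Ccr1, 1 other member was under 0.05 with striatum 2. This was Ccr6, at 2.01, 14.2 and 1.19 CPM in striatum against 0 to 3.48 CPM elsewhere, highest in striatum 2 (2.66 ± 1.16, edgeR p under 0.05, and 0.82 ± 1.48, p over 0.05, without striatum 2). Of the circadian clock genes, Clock had 36.0, 136 and 51.3 CPM in striatum, against 9.38 to 72.9 CPM elsewhere (1.50 ± 0.51, edgeR p under 0.05, and 0.73 ± 0.53, p over 0.05). That list was above 0 in 8 of 15 (median 0.04) and in 11 of 15 without striatum 2 (median 0.41), and its members Cry1, Cry2 and Dbp had no count in striatum 2. With striatum 2, 3 of its 15 members were higher at a p under 0.05 (all genes 4.61%) and 0 lower (all genes 1.83%). Without it, 3 were higher (Arntl, Hlf and Rora, all genes 1.48%) and 1 was lower (Bhlhe41, all genes 1.11%). Arntl, the partner of CLOCK, had 30.4, 0.162 and 17.0 CPM in striatum, against 8.16 to 19.9 CPM elsewhere (0.26 ± 0.78, edgeR p over 0.05, and 0.84 ± 0.38, p under 0.05). Rora, a nuclear receptor gene under 0.05 in both fits, was near 0 in most libraries, with 1.06, 0 and 8.08 CPM in striatum, against 0 to 4.43 CPM elsewhere. Of 35 neurotransmitter receptor genes, 18 had no count in any striatum library and 9 had enough counts to be tested, none of them a dopamine receptor.

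**Figure D4:**
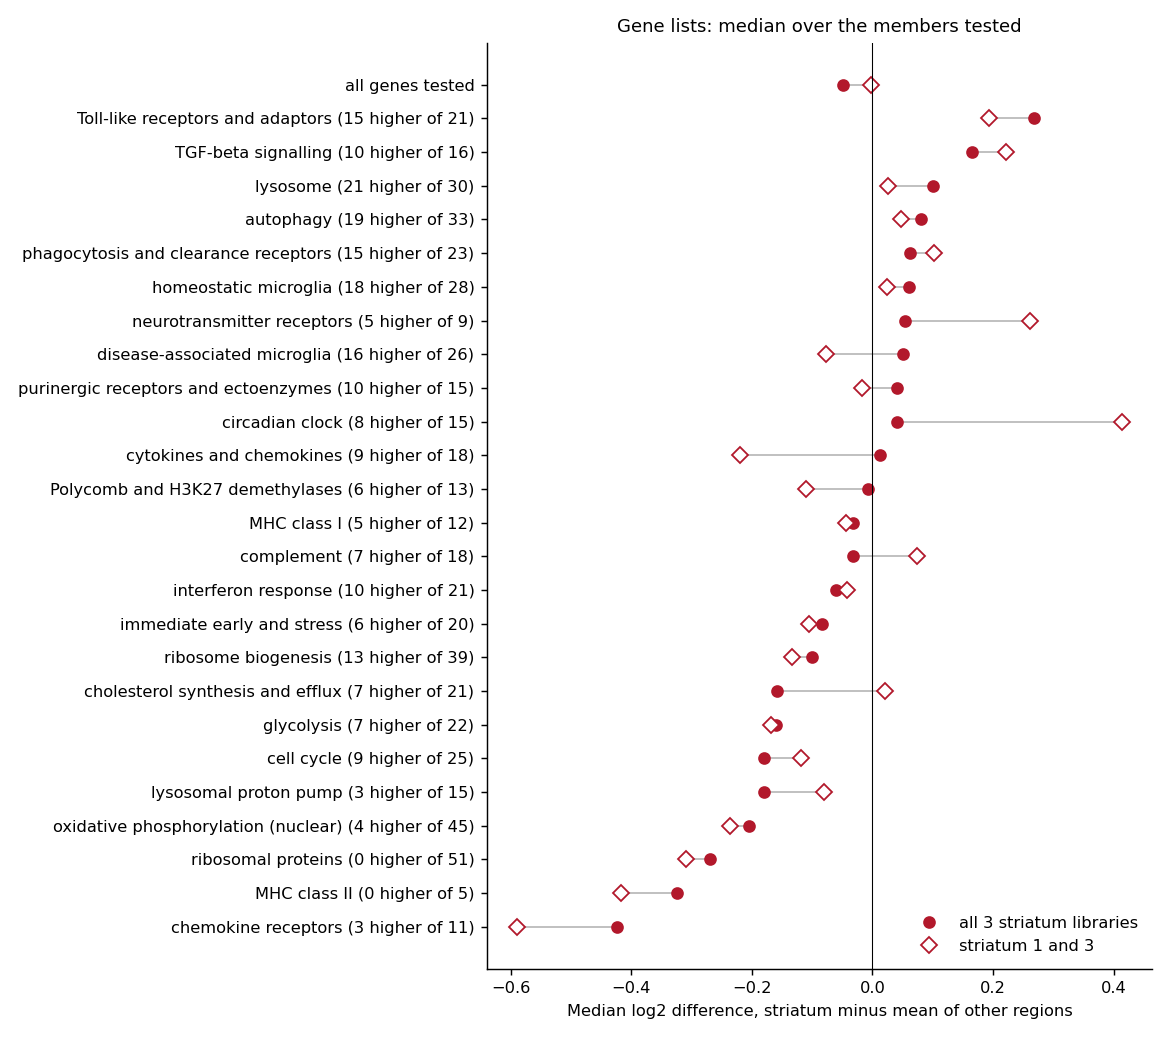
Points give the median log2 difference, striatum minus the mean of the other regions, over the tested members of each gene list, filled with all 3 striatum libraries and open with striatum 1 and 3; the label gives how many members were above 0 with all 3. Lists that stand below all genes tested (-0.05 and -0.0021) include chemokine receptors (-0.42 and -0.59) and MHC class II (-0.32 and -0.42). Ribosomal protein (-0.27 and -0.31) and oxidative phosphorylation genes (-0.20 and -0.24) also stand below. The medians of the clock, cytokine and neurotransmitter receptor lists shift when striatum 2 is left out.

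Transcripts of other cell types were present at uneven levels among the striatum libraries, and their part in the differences above was not tested. Choroid plexus and ependyma markers, of which 2 of 16 were at 0 in striatum, summed to 49.7, 958 and 135 CPM in striatum 1, 2 and 3, against 2.32 to 312 CPM elsewhere. The most abundant of them, Ttr, a secreted thyroid hormone carrier, had 35.1, 579.8 and 87.2 CPM in striatum, against 0 to 203 CPM elsewhere (2.88 ± 1.48, edgeR p over 0.05, and 0.95 ± 1.99, p over 0.05). Of 9 tested members of the list, 8 were above 0 (median 3.38) and 4 were higher at a p under 0.05 (all genes 4.61%). Without striatum 2, 6 of 10 were above 0 (median 0.24) and 1 was higher at a p under 0.05 (all genes 1.48%). Kcnj13, a potassium channel gene of that epithelium, had 0, 40.3 and 1.35 CPM in striatum, against 0 to 4.91 CPM elsewhere. Striatum 2 held the highest sum of these transcripts among all 12 libraries, and cerebellum 3 the next highest, at 312 CPM. Cortex 3 had 129 CPM and hippocampus 2 had 69.3 CPM, both above striatum 1. Lymphocyte markers, with 11 of the 14 in the count table at 0 in striatum, summed to 243, 92.5 and 109 CPM in striatum, against 103 to 205 CPM elsewhere. In striatum 1 this included the B cell gene Cd79a, at 33.3, 0 and 0 CPM in striatum against 0 to 9.84 CPM elsewhere.

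Neuron markers, with 3 of 17 at 0 in striatum, summed to 20.4, 18.8 and 15.4 CPM in striatum, against 18.4 to 57.9 CPM elsewhere. Markers of striatal projection neurons, with 11 of 20 at 0 in striatum, summed to 63.8, 59.3 and 69.2 CPM in striatum, against 35.1 to 56.9 CPM in 8 of the other libraries and 107 CPM in cerebellum 3. Nearly all of that sum was Pde1b, a phosphodiesterase gene, at 61.7, 56.4 and 60.2 CPM in striatum, against 26.8 to 94.0 CPM elsewhere (0.44 ± 0.31, edgeR p over 0.05, and 0.48 ± 0.35, p over 0.05, without striatum 2). The dopamine receptor genes Drd1a and Drd2 had 0 counts in all 12 libraries. Border macrophage markers summed to 1176, 2493 and 1524 CPM in striatum, against 908 to 2046 CPM elsewhere, with striatum 2 the highest of the 12. Most of the striatum 2 sum was Stab1, at 500, 1452 and 684 CPM in striatum, against 355 to 972 CPM elsewhere. The mean log2 deviation of the 13 tested members, each from its mean over the 12 libraries, was -1.41, -0.20 and 0.64 in striatum. It was -0.83 to 1.18 elsewhere. Cd163 had no count in striatum 2. Erythrocyte markers summed to 34.4, 13.6 and 0.792 CPM in striatum, against 0.312 to 155 CPM elsewhere. Endothelial markers summed to 37.5, 19.2 and 55.7 CPM in striatum, against 20.2 to 52.7 CPM elsewhere, and astrocyte markers to 294, 378 and 338 CPM, against 213 to 367 CPM. Oligodendrocyte markers summed to 200.3, 113 and 134 CPM in striatum, against 100.1 to 201 CPM elsewhere, and monocyte and neutrophil markers to 438, 472 and 451 CPM, against 287 to 401 CPM in 8 of the other libraries and 502 CPM in cerebellum 3. Most of the monocyte and neutrophil sum was Csf3r, a colony-stimulating factor receptor gene, at 413, 445 and 446 CPM in striatum, against 262 to 486 CPM elsewhere (0.30 ± 0.14, edgeR p over 0.05, and 0.28 ± 0.18, p over 0.05, without striatum 2), while S100a9, Ly6c2 and Retnlg had 0 counts in striatum. By these sums, striatum 3 was the highest of the 12 for endothelial and striatum 2 for astrocyte markers. All 3 striatum libraries lay above 8 of the 9 others in their monocyte and neutrophil sum. A sum follows its most abundant members. The mean log2 deviation of the 9 tested astrocyte markers was -0.54, -1.11 and 0.41 in striatum 1, 2 and 3, against -1.16 to 1.28 elsewhere. Gfap, an astrocyte marker, had no count in striatum 2.

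**Figure D5:**
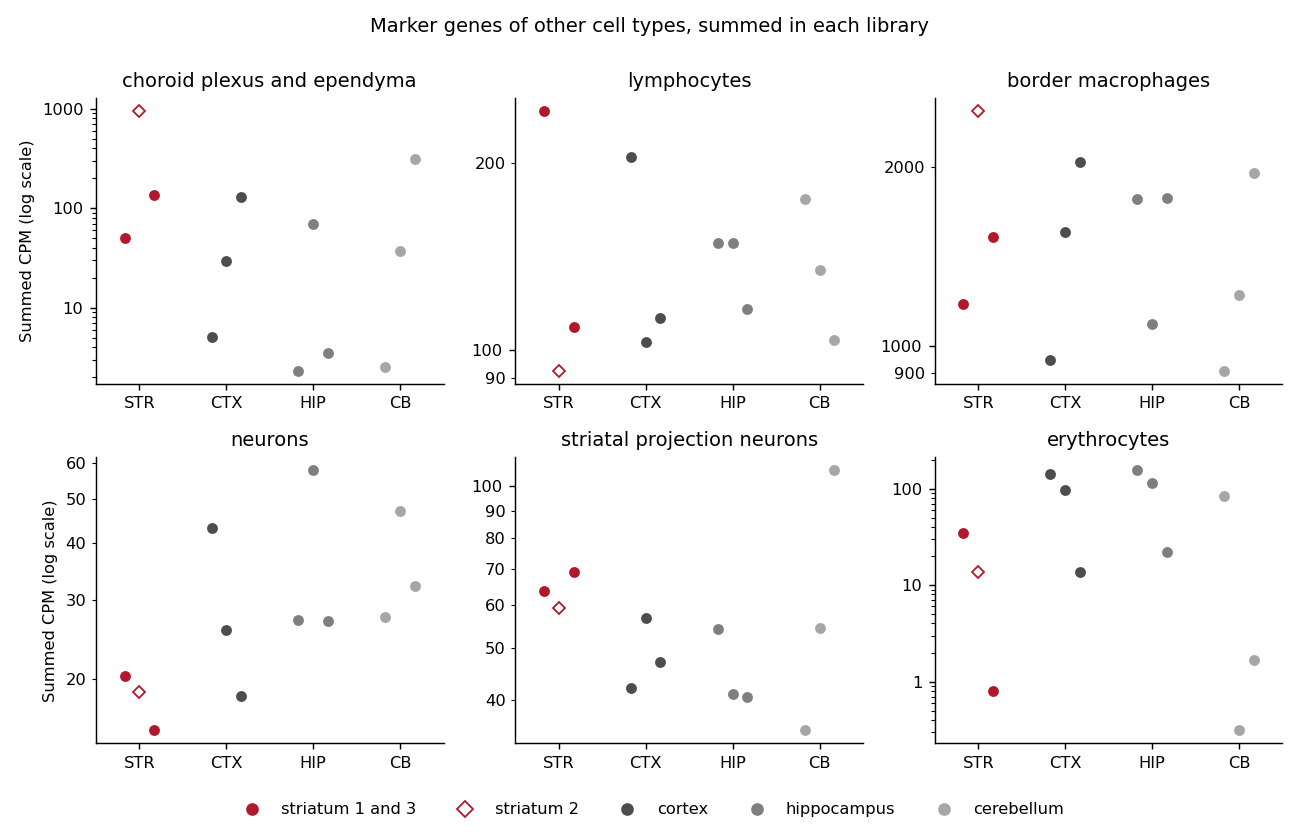
Each panel gives the summed CPM of a list of markers of another cell type in the 12 libraries on a log scale, striatum (STR) first and then cortex (CTX), hippocampus (HIP) and cerebellum (CB); each point is a library and the open diamond is striatum 2. Choroid plexus and ependyma markers reach 958 CPM in striatum 2, against 49.7 and 135 CPM in striatum 1 and 3, and neuron markers of striatum stay at 15.4 to 20.4 CPM.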

How the data were processed

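The authors deposited raw read counts per gene for all 12 libraries. Per the labels' protocols, cDNA was primed on poly(A) with a kit that does not mark strand, so overlapping and antisense genes cannot be told apart, and was amplified over 9 cycles before 13 cycles of library amplification. Tools named in the submitters' processing notes are STAR 2.5.3a, HTSeq, Trim Galore 0.4.3 and Picard; the build is mm10.

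Totals ranged from 6479839 to 14833340 counts per library. Counts of 23337 genes were filtered by region (filterByExpr of edgeR, count minimum 10, total minimum 15), scaled by TMM and fitted over the 4 regions with edgeR 4.0.16 (robust quasi-likelihood, R 4.3.3); the contrast was striatum minus the mean of the 3 other regions, with Benjamini-Hochberg adjustment over 12217 genes (12803 without striatum 2) and a threshold of 0.05. The test was checked on simulated data. Alternatives were DESeq2 1.42.0, limma 3.58.1 (voom, with and without quality weights), other filters, a replicate block and leaving out each library; DESeq2 and limma-voom without striatum 2 were chosen after seeing the data. Counting error is not the only error: reads carry no molecular identifiers.

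The comparison, gene lists and named genes were chosen with earlier results of these data known. Named genes were the 10 higher and 10 lower with the smallest p among those whose 3 striatum libraries lay beyond all 9 others, the 6 and 6 by the same rule without striatum 2, up to 3 members of each list, the 6 highest genes at 0 in striatum 2, and a set known from earlier results; the ranked groups exclude ribosomal protein genes, RIKEN clones and predicted genes. Of these, values are printed for genes the text turns on. Added to them were the genes said above to be looked up or named after values were seen. Symbols were matched to RefSeq for 12118 tested genes (99.2%), and 18 list symbols were changed to the table's spelling. Columns of other samples: 0.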

Additional observations from a re-analysis of the deposited data

How the results depend on the processing

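The number of genes that edgeR called stayed at 0 to 1 when each library was left out (1, Kdm5d, without cerebellum 3), and DESeq2 called 2. Genes higher at an unadjusted p under 0.05 numbered 563, and 190 to 869 when a library was left out (190 without striatum 2, 869 without striatum 1), 1056 with no filter and 347 with limma-voom. Genes lower numbered 223, and 131 to 496 when a library was left out (131 without hippocampus 2, 496 without striatum 3), and 373 with DESeq2. Without striatum 2 the 190 higher became 118 with DESeq2 and 306 with limma-voom, and the 142 lower became 274 and 65. Genes whose striatum libraries lay above all others numbered 51, and 59 to 322 when a library was left out, and those below 61, and 66 to 459; fewer libraries make such a count larger by construction. Genes at 0 in striatum 2 numbered 342 at a mean of at least 200 counts.

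Of 72 genes followed, 66 kept their sign in each of 20 alternative runs that tested them. DESeq2 and limma-voom without striatum 2 were not among these runs. With a library left out, Fads2 ranged from -3.04 (without striatum 2) to 0.24 (without striatum 1; 0.21 without striatum 3), P2ry12 from -0.033 (without striatum 1) to 0.20 (without striatum 3), and Cx3cr1 from -0.19 (without striatum 2) to 0.081 (without striatum 1; also above 0 without cortex 2 and cerebellum 1). Cx3cr1 was 0.0010 with the replicate block, and with limma-voom Xylb was -1.003 and Sos2 -0.96. The cause was not tested.

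The labels give no pairing by replicate number, and not every pair correlated over 0.1: deviations of 18 same-numbered pairs correlated at -0.12 to 0.29 (median 0.026), 4 of them over 0.1, including all 3 cortex and cerebellum pairs, and 9 of 12 libraries were closest to their own number, a hint from the data and not the design. With the replicate block edgeR called 0 genes, with 494 higher and 231 lower at an unadjusted p under 0.05; without striatum 2 the block gave 242 higher and 118 lower, and Uty was 0.13. After thinning to an equal total, 786 genes were at 0 in striatum 2 and 1 to 27 in each other library.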
